A study of Sus scrofa with 8 samples.

Results

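The comparison described here is that of heart muscle from Yorkshire pigs kept at 3000 m with heart muscle from Yorkshire pigs kept at 100 m. Hearts of Yorkshire and Tibetan pigs were profiled by RNA-seq at these altitudes, in 4 groups of 2 libraries each, to ask how a lowland breed and a breed of the Tibetan plateau differ in the hypoxic heart. The highland Yorkshire libraries are called YH1 and YH2, the lowland ones YL1 and YL2, and the Tibetan ones TH1, TH2, TL1 and TL2. All pigs were male and 6 months old per the labels, which name the tissue as heart without the chamber, and no agent or allele was involved. The titles and source names give YL1 and YL2 as lowland Yorkshire pigs, whereas their descriptions list the processed data of the lowland Tibetan pigs, and the values used here are those of the columns headed YL1 and YL2. Each library held RNA pooled from 4 pigs, so that replicate error here is that of pools, and the variation among single pigs is not seen.

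The genes described were chosen on their level in FPKM, a count of fragments scaled to transcript length and library size. A gene was kept with at least 1 FPKM in 2 of YH1, YH2 and YL1, and left out when its FPKM in YL2 was more than 2 times that in each of the other 7 libraries. Of 18975 genes in the table, 10964 met the first condition, 611 of these were left out by the second, and 10353 remained. The closest gene inside the second limit, ENSSSCG00000010401, stood at 1.999 times the next library, and the closest outside, SERPINB1, at 2.004 times. With a limit of 1.5 or of 3 times, 9951 or 10645 genes would remain. The choice is not neutral in direction, because 444 genes entered through YH1 and YH2 alone and therefore had to be higher there than in YL1, though not than in YL2, whereas 256 entered through YL1 and 1 highland library. The limit on YL2 removes only genes that are high in a lowland library.

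That limit was set because YL2 holds kidney transcripts. All 24 kidney markers in the table were over 2 times higher in YL2 than in any other library, with a summed level of 11376 FPKM against 3.74 to 20.8 FPKM elsewhere. None of the 24 is among the genes kept. Whether the labels of YL2 are right was not tested. The 13 ventricular muscle markers were present at over 1 FPKM in every library, and their sum was 17912 FPKM in YL2, 43921 in YL1, and 33896 and 38022 in YH1 and YH2. Between 18612000 and 21456000 reads fell on genes in the 4 Yorkshire libraries. Lists of genes are therefore given against YL1 alone and against YL2 alone beside the value against both, except where the choice of genes fixed the side.

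Heart muscle runs almost wholly on oxidative metabolism and is supplied by a dense capillary bed, with fibroblasts, vessel wall cells and resident leukocytes between the myocytes. In low oxygen the hypoxia-inducible factors escape their prolyl hydroxylases and raise genes of glycolysis, vessel growth and red cell formation, while thin air also loads the right side of the heart through narrowed lung vessels. Angiotensin, natriuretic peptides and stretch-induced Z-disc proteins are the usual readouts of such a load in the myocyte.

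Across the 10353 genes the highland and lowland libraries were close to each other. The median difference, highland minus lowland on the log2(FPKM + 1) scale, was 0.07 (this scale understates the change of low genes), it was 0.05 against YL1 alone and 0.10 against YL2 alone, and 365 genes (3.53%) differed by more than 1 in size. Across these genes Pearson's r was 0.969 between YH1 and YH2 and 0.93 between YL1 and YL2, and it lay at 0.968 and 0.956 between the highland libraries and YL1, so that YL1 was nearly as close to the highland libraries as these were to each other. With YL2 Pearson's r was lower, at 0.937 for YH1 and 0.924 for YH2. These correlations are across genes, which are not independent replicates.

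No gene passed the threshold of an adjusted p under 0.01 and a difference over 1 with limma, which was fitted to 11913 genes in all 8 libraries (0% of all genes tested). At an unadjusted limma p under 0.05, 521 of the 10353 genes (5.03%) were higher and 120 (1.16%) lower in the highland libraries, against 4.39% and 1.58% of all genes tested. Of these, 81.3% were higher, and the share was 71.6% with median-ratio scaling (390 higher, 155 lower) and 82.5% with equal FPKM sums (80 higher, 17 lower). Tests on the recovered reads, which differ in the model as well as in the scaling, gave 63.8% with edgeR (403 higher, 229 lower) and 60.4% with DESeq2 (418 higher, 274 lower). Groups that did not overlap were counted for 2503 genes higher and 1410 lower in the highland libraries, against 21.9% and 14.4% of all genes tested. With 2 libraries a side, the smallest two-sided p of an exact permutation test is 0.333, so that such a test on 1 gene cannot reach 0.05, and the tests below are those of the fit across all genes. In the fit of all 8 libraries the p-values measure the spread between the pools of a group, taken over all 4 groups. That spread takes in TH1 against TH2 and YL1 against YL2, which holds kidney transcripts. Differences in the make-up of the libraries are not set apart from it.

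Without YL2, 369 genes were higher and 193 lower at that unadjusted limma p, or 3.56% and 1.86%, against 3.41% and 2.04% of all genes tested. Of the 521 higher genes 236 passed again, and of the 120 lower genes 34 did. All 641 had the same direction against YL1 alone. With edgeR on the recovered reads 0 of the 10353 genes were called, and 6.1% had an unadjusted p under 0.05, against 8.87% of all genes tested. Without YL2 edgeR called 1 (0.00966%, against 0.00839% of all genes tested), and 4.64% had an unadjusted p under 0.05, against 4.58%. With DESeq2 6.68% had an unadjusted p under 0.05, against 10.3% of all genes tested. DESeq2 called 16, of which 10 were higher and 6 lower, against 0.302% of all genes tested in either direction and 0.0839% on the higher side. Over all genes tested it called 36, of which 10 were higher, so that the choice of genes took calls from the lower side alone. Of the higher ones, ENSSSCG00000027712, ENSSSCG00000028235, XCR1, WDFY4 and KLHL6 entered through YH1 and YH2 alone. In each of the 16 the adjusted p reached 1 under at least 1 other setting. The verbs rose and fell are therefore not used below, and each gene is given by its values.

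The genes with the widest gap between the groups were taken by rule, from those at an unadjusted limma p under 0.05 that differed by more than 1 against both lowland libraries together and against YL1 alone, had 50 or more reads in each library of the higher group and did not overlap. There were 63 such genes on the highland side, of which the 15 widest are shown, and 13 on the lowland side, all shown. Their limma adjusted p ran from 0.344 to 0.784. The gap was measured in log2(FPKM + 1), from the lowest library of the higher group to the highest of the lower group.

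**Figure D1:**
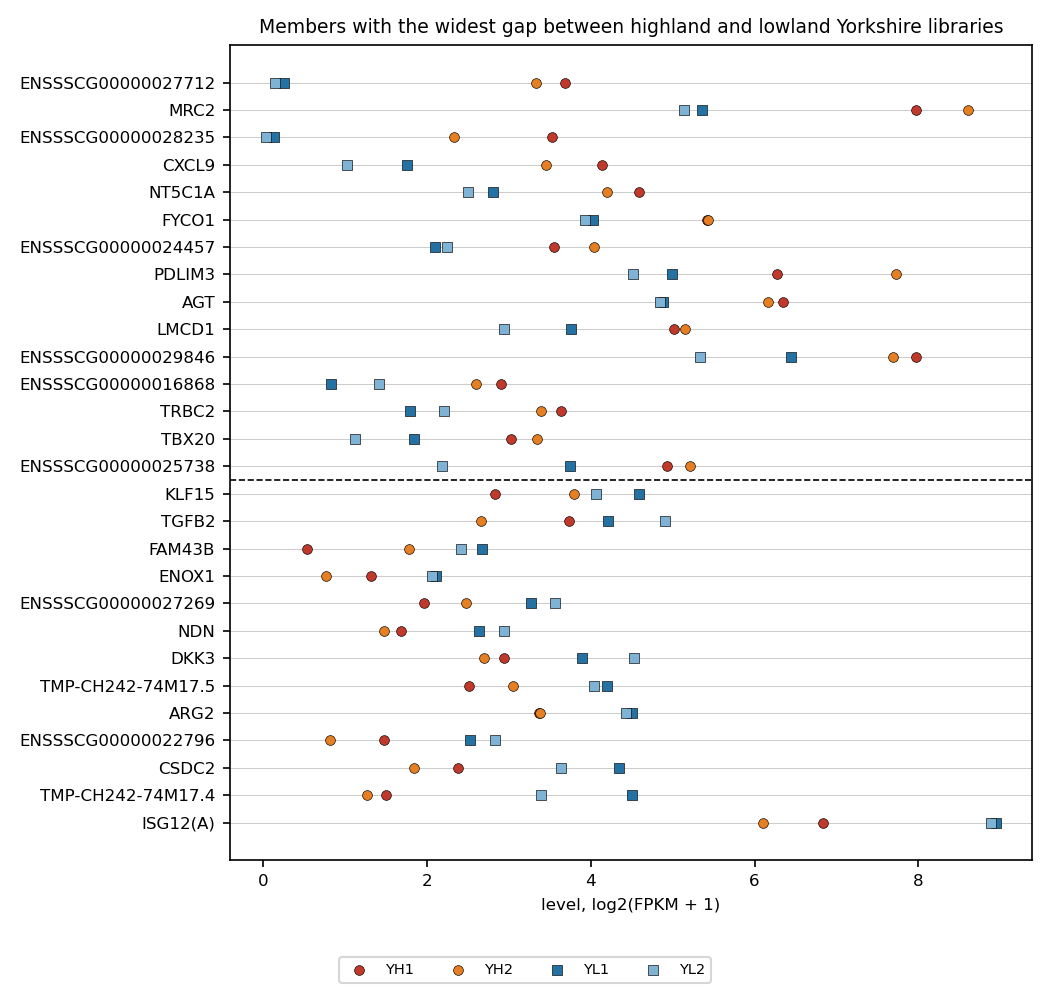
Level on the log2(FPKM + 1) axis of the 28 genes with the widest gap in YH1 and YH2 (circles) and YL1 and YL2 (squares), 1 point per library. The 15 genes above the dashed line have both circles to the right of both squares, and the 13 genes below it have both squares to the right, since the rule asked for groups that do not overlap.

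Among these genes AGT, which encodes angiotensinogen, the precursor of the angiotensin peptides, was one of the most even within each group. It stood at 80.2 and 70.9 FPKM in YH1 and YH2 and at 28.4 and 27.7 FPKM in YL1 and YL2. The highland libraries were thus well above both lowland libraries, and the latter were alike in spite of the kidney RNA in YL2. The difference was 1.39 ± 0.24 (SE) on the log2 scale, with a limma adjusted p of 0.582, and it was 1.38 against YL1 alone. DESeq2 gave 1.45 with an adjusted p of 0.00997, and the adjusted p over the other settings reached 1. AGT is one of the genes the study named for Yorkshire pigs from these samples, so its direction is not independent evidence. It lies at chromosome 14, 64380783 to 64389549, in the Sscrofa10.2 build used by the table. The table holds 12 renin-angiotensin genes, and 5 of these were kept, AGT included, of which 2 were higher and 3 lower, with a median difference of -0.18, of -0.14 against YL1 and of 0.11 against YL2. Over all 12, 2 were higher and 10 lower, with a median of -0.62. Of the entries not kept, 3 were left out for their high level in YL2 and 4 for low values. The receptor AGTR1 stood at 5.69 and 7.52 FPKM in the highland libraries and at 9.49 and 6 FPKM in the lowland ones, with overlap.

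FYCO1, an adaptor that carries autophagosomes along microtubules, had 41.9 and 42.1 FPKM in YH1 and YH2 and 15.3 and 14.2 FPKM in YL1 and YL2. Its difference was 1.45 ± 0.26 (SE), and the libraries within each group hardly differed. Its locus at chromosome 13, 32166987 to 32239205, is shared in the table with CXCR6, so that reads of these overlapping genes cannot be told apart. NT5C1A, a nucleotidase of muscle that forms adenosine from AMP, had 23.1 and 17.3 FPKM against 5.97 and 4.66 FPKM, a difference of 1.74 ± 0.37 (SE).

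PDLIM3, a Z-disc protein, was at 76.6 and 210 FPKM in the highland libraries and at 30.7 and 21.9 FPKM in the lowland ones, a difference of 2.25 ± 0.59 (SE), although YH1 and YH2 themselves differed widely. LMCD1, a LIM-domain cofactor of transcription in muscle, was at 31.5 and 34.4 FPKM against 12.5 and 6.67 FPKM. TBX20, a T-box transcription factor of the heart, was at 7.18 and 9.17 FPKM against 2.58 and 1.17 FPKM. In LMCD1 and TBX20 the lower lowland value was that of YL2, which also had the lowest sum of ventricular markers, and the part of that in these differences was not tested. Against YL1 alone they differed by 1.33 and 1.35.

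Beyond the genes shown, 2 further genes are given, both of which DESeq2 called. CORIN, the protease that activates the atrial natriuretic peptide, was at 10.4 and 14.3 FPKM in the highland libraries and at 4.63 and 2.21 FPKM in the lowland ones, a difference of 1.64 ± 0.31 (SE). ADRA1D, an alpha-1 adrenergic receptor that was picked after its values were seen, was at 5.08 and 8.17 FPKM against 1.13 and 1.97 FPKM, a difference of 1.57 ± 0.31 (SE). Both had groups that did not overlap, a limma adjusted p of 0.582 and a DESeq2 adjusted p of 0.00974 and 0.00306, which reached 1 under other settings.

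Not every wide gap in FPKM was also one in reads. MRC2, a collagen receptor whose short model lies on chromosome 12 from 16010221 to 16010358, was listed at 250 and 390 FPKM against 40 and 34.1 FPKM, a limma difference of 3.04. Its recovered reads were 923 and 1345 in YH1 and YH2 and 685 and 1076 in YL1 and YL2, and edgeR gave a difference of 0.32, so that the gap in FPKM was not one in reads. TGFB2, a ligand of the TGF-beta family on the lower side, behaved alike, with a limma difference of -1.36 and an edgeR difference of -0.03 on 162 and 133 against 126 and 163 reads.

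A few of the highland genes have no symbol, and of these ENSSSCG00000027712, ENSSSCG00000028235 and ENSSSCG00000016868 entered through YH1 and YH2 alone. ENSSSCG00000027712, on scaffold GL895007.2, had 325 and 308 reads in YH1 and YH2 and 4 reads in each of YL1 and YL2. Its levels were 11.9 and 9.05 FPKM against 0.192 and 0.109 FPKM, while the 4 Tibetan libraries lay between 3 and 8.73 FPKM, so that the lowland Yorkshire libraries were the low ones of the series. ENSSSCG00000028235 had 318 and 136 reads against 2 and 1 reads, and no fold is given on so few reads. The remaining genes without a symbol on the highland side, ENSSSCG00000024457, ENSSSCG00000029846, ENSSSCG00000016868 and ENSSSCG00000025738, had 57 to 1502 reads in the highland libraries and 6 to 327 in the lowland ones.

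On the lowland side the gene with the widest gap was ISG12(A), an interferon-stimulated gene of the mitochondrial membrane. It was at 113 and 67.6 FPKM in YH1 and YH2 and at 491 and 474 FPKM in YL1 and YL2, a difference of -2.45 ± 0.33 (SE) with a limma adjusted p of 0.344, the lowest of the 28. DESeq2 gave -2.47 with an adjusted p of 2.77e-07, which reached 1 under other settings. The other lower genes that DESeq2 called were TMP-CH242-74M17.4, DKK3, USP9Y, PELI2 and PVRL3, at -2.97, -1.53, -1.33, -1.59 and -2.19. ISG12(A) lies at chromosome 7, 122215477 to 122220545. Both lowland libraries were high, whereas most other interferon-stimulated genes were high in YL1 alone, as given below.

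The next gap belonged to TMP-CH242-74M17.4, a gene named for its clone at chromosome 7, 24704563 to 24708270, which lies between the class I genes SLA-5 and SLA-2 of the swine leukocyte antigen complex. It was at 1.82 and 1.4 FPKM in the highland libraries and at 21.7 and 9.52 FPKM in the lowland ones, a difference of -2.57 ± 0.37 (SE). This difference was larger in size than that of ISG12(A), whose gap was wider. TMP-CH242-74M17.5, on the other side of SLA-5 at 24655719 to 24659039, was at 4.72 and 7.28 FPKM against 17.3 and 15.5 FPKM. Class I genes are nearly identical copies and differ between pigs, so that the assignment of reads among them is uncertain. SLA-5 itself was at 255 and 299 FPKM against 351 and 304 FPKM, with a difference of -0.24 in FPKM and of 0.26 with edgeR on reads. SLA-2 was at 159 and 141 FPKM against 196 and 177 FPKM.

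The other named genes higher in the lowland libraries were of varied function. ARG2, the mitochondrial arginase, was at 9.34 and 9.45 FPKM in YH1 and YH2 and at 21.7 and 20.6 FPKM in YL1 and YL2, a difference of -1.09 ± 0.22 (SE) with almost no spread within a group. CSDC2, a cold-shock domain protein that binds RNA, was at 4.21 and 2.58 FPKM against 19.4 and 11.4 FPKM. DKK3, a secreted protein of the Dickkopf family, was at 6.66 and 5.51 FPKM against 13.9 and 22 FPKM. In all 3 the highland libraries lay below both lowland libraries. NDN, an imprinted growth suppressor, ENOX1, a surface NADH oxidase, FAM43B, and KLF15, a transcription factor that restrains growth of the myocyte, differed by -1.02 to -1.39. ENSSSCG00000022796 and ENSSSCG00000027269 differed by -1.53 and -1.20.

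T and NK cell markers were higher in the highland libraries as a group. Of 17 entries in the table, 16 were higher on average and 15 were higher without overlap, beside 21.9% of all genes tested, with a median difference of 0.76, against 0.03 over all genes tested. Only 13 of the 17 were kept, and 8 of these entered through the highland libraries alone, so the 5 that were above 1 FPKM in YH1, YH2 and YL1 are given first. In bulk tissue, fewer cells of a type and less RNA per cell cannot be told apart.

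CD3E, a chain of the T cell receptor complex, was at 6.6 and 9.08 FPKM in YH1 and YH2 and at 2.13 and 2.84 FPKM in YL1 and YL2, a difference of 1.34 ± 0.27 (SE). CD2, an adhesion receptor of T and NK cells, was at 4.18 and 4.82 FPKM against 1.74 and 2.02 FPKM. NKG7, a granule protein of cytotoxic cells, was at 11.8 and 12 FPKM against 6.76 and 5.07 FPKM. In each of these genes the highland libraries lay clearly above the lowland ones. The chemokine CCL5 stood at 40.1 and 46.4 FPKM against 24.4 and 26.1 FPKM, but with edgeR on reads its difference was 0.20, compared with 0.75 by limma. IL2RB, a receptor chain for interleukin-2, was at 9.8 and 7.97 FPKM against 6.52 and 5.52 FPKM. The other 8 genes stood at 1.23 to 3.17 FPKM in the highland libraries and at 0.244 to 1.23 FPKM in the lowland ones, among them CD3D (2.05 and 2.7 against 0.466 and 0.935 FPKM), CD4 (1.86 and 2.19 against 0.781 and 0.789 FPKM) and CD8A (3.15 and 3.17 against 0.674 and 1.18 FPKM).

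The 5 genes had a median difference of 0.91, and CD3E, CD2 and NKG7 were those at an unadjusted limma p under 0.05, beside 4.39% of all genes tested in that direction. Counts over all 13 genes kept are not used as support, since the choice of genes fixed the side of 8 against YL1. With equal FPKM sums none of the T and NK, myeloid, SLA, smooth muscle or endothelial genes kept was at an unadjusted limma p under 0.05, beside 0.772% of all genes tested on the higher side. Of the 4 entries that were not kept, GZMB was at 1.49 and 0.983 FPKM against 0.853 and 0.944 FPKM and PRF1 at 0.63 and 0.603 FPKM against 0.378 and 0.421 FPKM. GZMK overlapped, at 0.21 and 0.564 FPKM against 0.264 and 0.441 FPKM, and a second entry of GZMA, at 0 and 0.0383 FPKM against 0.206 and 0.023 FPKM, was the one that was lower on average. The constant chain of the T cell receptor, TRBC2, one of the genes with the widest gaps, was at 11.4 and 9.5 FPKM against 2.48 and 3.61 FPKM. Its near-identical copies make its reads uncertain. None of the 7 B cell markers was kept, and they reached at most 1.12 FPKM in the Yorkshire libraries.

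**Figure D2:**
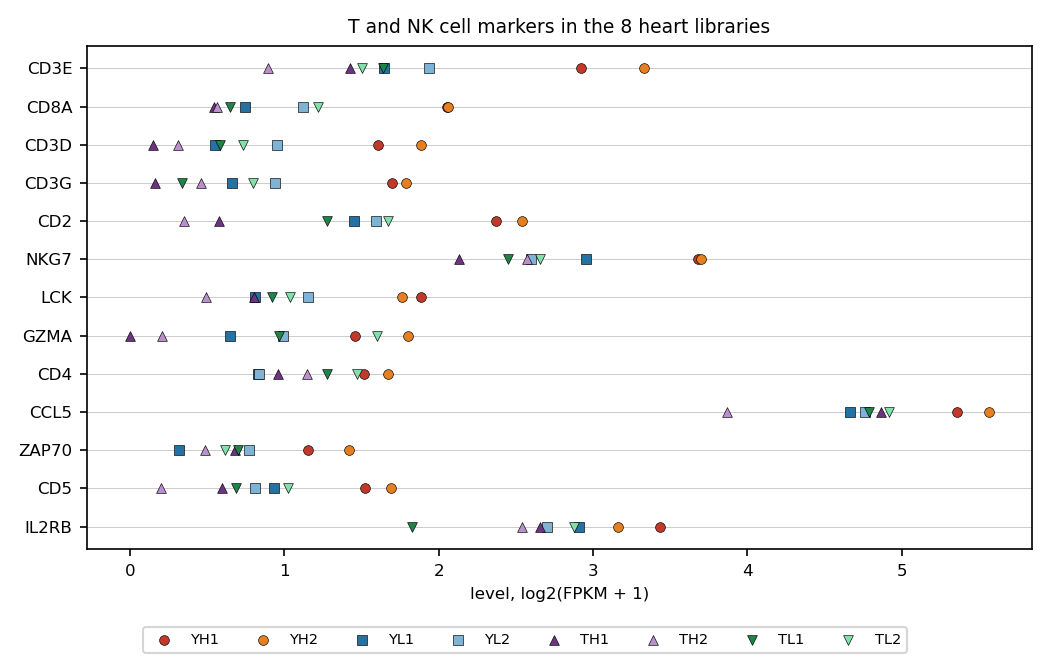
Level on the log2(FPKM + 1) axis of the 13 T and NK cell markers kept, in all 8 libraries, 1 point per library, with genes ordered by the difference between highland and lowland Yorkshire pigs. YH1 and YH2 (circles) lie to the right of YL1 and YL2 (squares) in every row, where the choice of genes fixed the side of 8 against YL1 but not against YL2.

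The myeloid markers were higher as well, with more scatter. Of 14 macrophage and neutrophil markers measured, 12 were higher, of which 6 did not overlap (21.9% of all genes tested), and the 10 genes kept had a median difference of 0.56, of 0.50 against YL1 and of 0.68 against YL2. CSF1R, the receptor that sustains macrophages, was at 5.48 and 6.06 FPKM in the highland libraries and at 2.96 and 2.67 FPKM in the lowland ones. TYROBP, the signal adaptor of myeloid and NK receptors, was at 27.1 and 36.1 FPKM against 19.3 and 12.5 FPKM. FCER1G, another such adaptor, was at 25.9 and 31.5 FPKM against 19.5 and 12.5 FPKM. These were the 3 genes of the list at an unadjusted limma p under 0.05 (4.39% of all genes tested on that side). Without YH2 none was higher and 1 was lower at that p, beside 1.46% and 0.722% of all genes tested, and the median was 0.29. CD163, a defining marker of resident macrophages, was at or under 0.0777 FPKM in all 4 libraries, and the groups overlapped in the complement genes C1QA and C1QC, with a difference of 0.27 for C1QA and 0.47 for C1QC.

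Some further leukocyte genes were picked after their values were seen, mostly because DESeq2 called them. Of these XCR1, WDFY4, IRF8 and KLHL6 were under 1 FPKM in YL1 and entered through the highland libraries alone, so that they lend the leukocyte lists no support. PTPRC, the surface phosphatase CD45 of all leukocytes, was at 6.1 and 6.19 FPKM in YH1 and YH2 and at 1.98 and 2.91 FPKM in YL1 and YL2. XCR1, a chemokine receptor of cross-presenting dendritic cells, was at 1.25 and 2.43 FPKM against 0.0752 and 0.137 FPKM, from 85 and 166 against 4 and 13 reads, and it lies next to FYCO1 at chromosome 13, 32247995 to 32256018. WDFY4, needed for cross-presentation, was at 1.84 and 1.95 FPKM against 0.67 and 0.465 FPKM. Again both highland libraries were above both lowland ones. IRF8, the transcription factor of dendritic cells and monocytes, was at 3.93 and 7.38 FPKM against 0.605 and 0.671 FPKM, from 24 and 49 against 3 and 6 reads. MPEG1, a pore-forming protein of macrophages, was at 4.27 and 5.66 FPKM against 1.76 and 1.93 FPKM, and KLHL6, a lymphoid gene, at 2.86 and 2.65 FPKM against 0.968 and 0.776 FPKM. DESeq2 called XCR1, WDFY4, KLHL6 and MPEG1, with adjusted p of 1.79e-05, 0.00423, 0.00639 and 0.00974, each of which reached 1 under other settings.

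Some antigen presentation genes were higher as well. In the list of SLA and antigen presentation genes 13 of 15 in the table were kept, 10 higher and 3 lower, with a median difference of 0.45, of 0.32 against YL1 and of 0.59 against YL2. The class II chain SLA-DQA1 was at 133 and 153 FPKM in YH1 and YH2 and at 75.9 and 58.4 FPKM in YL1 and YL2, a difference of 1.09 ± 0.24 (SE). SLA-DMA, which loads peptides onto class II molecules, was at 37.2 and 34.7 FPKM against 18.3 and 14.5 FPKM, a difference of 1.09 ± 0.22 (SE). SLA-DRA1, named after its values were seen, was at 217 and 279 FPKM against 197 and 128 FPKM. The class I genes went both ways: SLA-2 and SLA-5 were lower in FPKM (given above), whereas SLA-6, SLA-7 and SLA-8, named after their values were seen, differed by 0.66, 0.48 and 0.26, SLA-8 with overlap. The myeloid marker sum was 155 and 192 FPKM in the highland libraries and at most 138 FPKM in the lowland ones, and its part in the class II values was not tested.

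CXCL9, a chemokine induced by interferon gamma that draws T cells, was the chemokine with the widest gap. It was at 16.6 and 9.92 FPKM in YH1 and YH2 and at 2.38 and 1.03 FPKM in YL1 and YL2, a difference of 2.41 ± 0.44 (SE) with a limma adjusted p of 0.582, and of 2.04 against YL1. It lies at chromosome 8, 75801203 to 75806186, beside CXCL10, which showed no such separation. CXCL10 was at 138 and 21.5 FPKM in the highland libraries and at 366 and 8.42 FPKM in the lowland ones. IRF1, a transcription factor of the interferon gamma response, was at 15.7 and 11.2 FPKM against 7.67 and 4.77 FPKM, a difference of 1.01 ± 0.28 (SE). GBP1, a guanylate-binding protein of the same response that was named after its values were seen, was at 37.9 and 18.3 FPKM against 15.5 and 4.53 FPKM, with no overlap. These were the 3 of 27 interferon-stimulated genes higher at an unadjusted limma p under 0.05, beside 4.39% of all genes tested. The 13 T and NK markers kept summed to 89.3 and 99.5 FPKM against 46.5 and 49.1 FPKM, and their part in CXCL9, IRF1 and GBP1 was not tested. Of these sums CCL5 alone made up 40.1 and 46.4 against 24.4 and 26.1 FPKM, with a difference of 0.20 on reads by edgeR, and 8 of the 13 genes entered through the highland libraries alone.

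The rest of the interferon-stimulated genes set the lowland libraries apart from each other more than from the highland ones. Of 27 genes kept, 21 were lower and 6 higher in the highland libraries, with a median difference of -0.45. Against YL1 alone 23 were lower, with a median of -1.71, and against YL2 alone the median was 0.59. Without YL1, 22 of the 27 were higher and 5 lower, so that the direction of the list rested on that library. Without YL2, 20 of the 27 were lower at an unadjusted limma p under 0.05, beside 2.04% of all genes tested in that direction.

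MX1, an antiviral GTPase that was named after its values were seen, shows the pattern at its clearest. It was at 50.7 FPKM in YL1, and at 4.37, 3.79 and 4.41 FPKM in YH1, YH2 and YL2. ISG15, a ubiquitin-like modifier, was at 127 FPKM in YL1 and at 18.4, 7.89 and 11.6 FPKM in the other 3. OAS2, which makes the activator of RNase L, was at 50.1 FPKM in YL1 and at 12.7, 14.6 and 6.61 FPKM in the others, and IFI44L at 57 FPKM against 24.7, 18.3 and 13.5 FPKM. In each of these genes YL1 alone was high. Of the 4 entries that the choice of genes left out, all were highest in YL1 too, with OASL at 8.71 FPKM against 0.104, 0.0318 and 0.178 FPKM. STAT2, the signal transducer of type I interferon, was lower against both lowland libraries without overlap, at 3.86 and 4.45 FPKM against 6.99 and 5.44 FPKM.

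**Figure D3:**
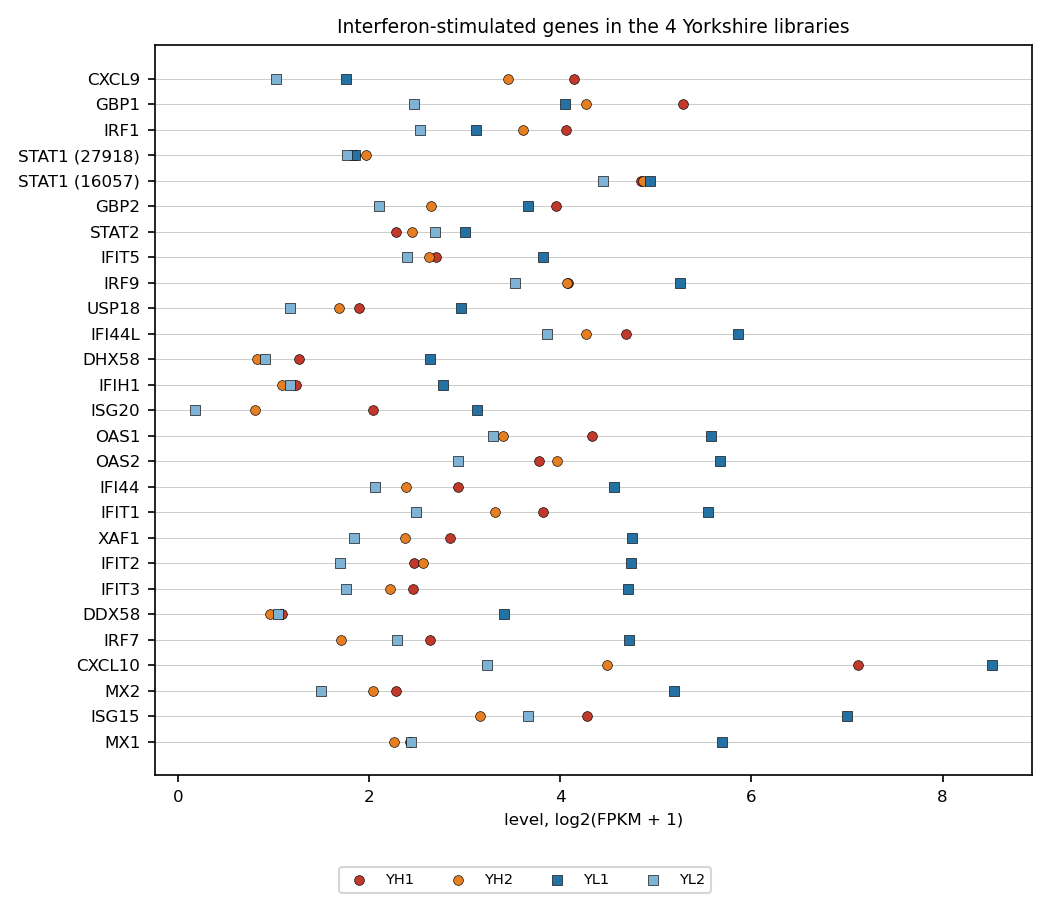
Level on the log2(FPKM + 1) axis of the 27 interferon-stimulated genes kept, in the 4 Yorkshire libraries, 1 point per library, ordered by the difference from YL1. In CXCL9, GBP1 and IRF1 at the top YH1 and YH2 (circles) lie right of both lowland libraries, and in most rows below YL1 (dark square) lies alone to the right, as for MX1 at 50.7 FPKM.

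Genes of the vessel wall had higher medians in the highland libraries against either lowland library. All 13 entries for smooth muscle and pericytes in the table were higher, 10 of them without overlap, beside 21.9% of all genes tested. The 12 kept had a median difference of 0.91, of 0.79 against YL1 and of 1.02 against YL2, and 5 passed an unadjusted limma p under 0.05, beside 4.39% of all genes tested. Without YH2 there were 2, beside 1.46%. ACTA2, the smooth muscle actin, was at 44.3 and 42.8 FPKM in YH1 and YH2 and at 17.6 and 26.6 FPKM in YL1 and YL2, a difference of 0.97 ± 0.34 (SE). TAGLN, another protein of the smooth muscle cytoskeleton, was at 60.8 and 77 FPKM against 40.4 and 42.3 FPKM. SYNPO2, an actin-binding protein of smooth and striated muscle, was at 32.6 and 30.2 FPKM against 16.3 and 6.92 FPKM. The receptors NOTCH3 and PDGFRB, by which mural cells are maintained, have 2 entries each in the table, and all 4 entries were higher with no overlap. DES, which the cardiomyocyte also expresses strongly, overlapped, and its sign changed without YL2.

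Endothelial markers showed a smaller difference in the same direction. All 12 were kept and higher, 10 without overlap (21.9% of all genes tested), with a median difference of 0.53, of 0.35 against YL1 and of 0.73 against YL2, and 2 passed an unadjusted limma p under 0.05 (4.39% of all genes tested). This was 1 without YH2, beside 1.46% of all genes tested, and 4 without YL1, beside 11.6%. CLDN5, the claudin of endothelial tight junctions, was at 20.1 and 24.1 FPKM in the highland libraries and at 9.18 and 11.4 FPKM in the lowland ones, a difference of 1.04 ± 0.21 (SE). ERG, an endothelial transcription factor, was at 7.93 and 9.86 FPKM against 4.82 and 4.45 FPKM. VWF, the clotting factor carrier made by endothelium, was at 24.4 and 25.9 FPKM against 10.4 and 6.42 FPKM, the widest gap of the list, but with a standard error of 0.98 in the fit of all libraries. That fit includes TH1 and TH2, in which VWF was at 1.07 and 22.8 FPKM. PECAM1, an adhesion molecule of all endothelium, was at 56.9 and 65.6 FPKM against 52 and 35.7 FPKM, so that in it YL1 came close to the highland libraries.

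**Figure D4:**
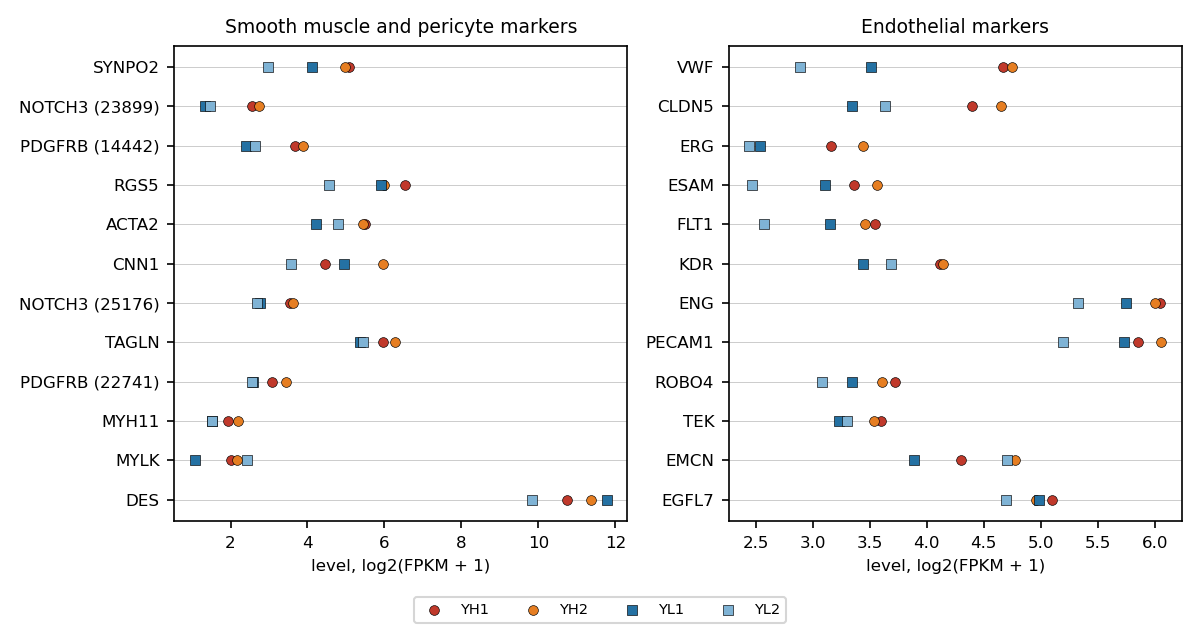
Level on the log2(FPKM + 1) axis of the 12 smooth muscle and pericyte entries (left) and the 12 endothelial markers (right) kept, in YH1 and YH2 (circles) and YL1 and YL2 (squares), 1 point per library. For genes with more than 1 entry the end of the gene identifier is shown. Circles lie right of both squares in 9 of 12 rows on the left and in 10 of 12 on the right, and the median difference was 0.91 on the left and 0.53 on the right.

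Most ligands and receptors of vessel growth that were kept were higher as well. Of 11 VEGF and angiopoietin genes kept, 10 were higher and did not overlap, beside 21.9% of all genes tested, with a median of 0.36, of 0.33 against YL1 and of 0.44 against YL2, and none passed an unadjusted limma p under 0.05. VEGFA, the main ligand of endothelial growth, was at 82 and 77.4 FPKM in YH1 and YH2 and at 71.2 and 54 FPKM in YL1 and YL2, a difference of 0.36 ± 0.29 (SE). Its receptor KDR was at 16.3 and 16.7 FPKM against 9.87 and 11.9 FPKM, and the decoy receptor FLT1 at 10.7 and 9.99 FPKM against 7.92 and 4.96 FPKM. All 3 had highland libraries above the lowland ones by less than the errors of the fit allow to call. KDR, FLT1 and TEK are on the endothelial list as well, and FLT1 is among the genes the study named from these samples.

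Extracellular matrix genes formed the longest list of this kind. Of 36 fibroblast and matrix entries kept, 33 were higher and 27 of these did not overlap, beside 21.9% of all genes tested. COL15A1, SPARC and COL1A1 have more than 1 entry among them. None of the 36 passed an unadjusted limma p under 0.05, beside 4.39% of all genes tested. With the 4 Yorkshire libraries alone 6 of the 36 were higher at that p, beside 4.47% of all genes tested, and without YL1 5 were, beside 11.6%. Their median was 0.51 against both libraries, 0.37 against YL1 and 0.63 against YL2. COL6A3, a chain of the microfibrillar collagen around cells, was at 9.86 and 15.3 FPKM in the highland libraries and at 5.05 and 3.09 FPKM in the lowland ones, with an error of 0.72 on a difference of 1.42. ELN, the core of elastic fibres in the vessel wall, was at 14.5 and 17.1 FPKM against 7.61 and 6.44 FPKM, with an error of 0.65 on a difference of 1.06. Both errors are those of the fit of all 8 libraries. In TH1 and TH2 COL6A3 was at 3.95 and 25.6 FPKM and ELN at 4.1 and 23.7 FPKM. The part of that in the errors was not tested.

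Of 7 genes of the hypoxia-inducible factors and their hydroxylases kept, none had groups that did not overlap, beside 21.9% of all genes tested on the higher side and 14.4% on the lower, and the median difference was 0.15, of 0.06 against YL1 and of 0.21 against YL2. EPAS1, the alpha subunit that predominates in endothelium, was at 59.9 and 50.7 FPKM in YH1 and YH2 and at 55.2 and 44.6 FPKM in YL1 and YL2. HIF1A was at 9.6 and 12 FPKM against 6.11 and 11.2 FPKM. EGLN3, the prolyl hydroxylase most inducible by hypoxia, was at 81.2 and 56.5 FPKM against 79.7 and 34.5 FPKM. In all 3 the ranges of the groups overlapped, and the sign of their difference changed in at least 1 setting.

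The targets of these factors outside glycolysis were split, with 8 higher and 11 lower of 19 kept and a median of -0.02, of -0.04 against YL1 and of 0.12 against YL2. PDK1, the kinase that closes pyruvate dehydrogenase, was the exception on the high side, at 24.5 and 24.8 FPKM in YH1 and YH2 and at 13.3 and 8.61 FPKM in YL1 and YL2, a difference of 1.13 ± 0.25 (SE). On the low side P4HA1, a collagen prolyl hydroxylase, was at 13.4 and 14 FPKM against 26.2 and 18.3 FPKM, a difference of -0.64 ± 0.25 (SE). BNIP3, a receptor of mitophagy, was at 84.5 and 73.4 FPKM against 111 and 103 FPKM. These 3 targets of the same factors thus stood on different sides, each without overlap. Of 22 glycolysis genes kept 18 were higher, but the median was 0.67 against YL2 and -0.12 against YL1, and 3 were higher without overlap, beside 21.9% of all genes tested. PFKM, the phosphofructokinase of muscle, was at 330 and 350 FPKM against 235 and 125 FPKM.

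Red cell genes were measured in whole tissue, which may hold blood. Of 10 genes kept 6 were higher and 4 lower, with a median of 0.46, of 0.24 against YL1 and of 0.65 against YL2, and of all 16 measured, 6 were higher and 10 lower, with a median of -0.09. Of the entries not kept, 2 were left out for their high level in YL2 and 4 for low values. HBA, an alpha globin, was at 459 and 490 FPKM in the highland libraries and at 256 and 231 FPKM in the lowland ones, a difference of 0.96 ± 0.35 (SE). HBB was at 599 and 534 FPKM against 374 and 290 FPKM, and HBM at 4.64 and 4.05 FPKM against 2.16 and 1.8 FPKM. ALAS2, the first enzyme of heme synthesis in red cell precursors, was at 3.16 and 3.13 FPKM against 1.34 and 1.52 FPKM. Of the 10 genes kept, 6 were higher without overlap and 1 was lower, beside 21.9% and 14.4% of all genes tested. HBA, HBB, HBM and ALAS2 were higher without overlap, by 0.77 to 0.96. AHSP, the chaperone of alpha globin, was not, at 2.49 and 1.29 FPKM against 1.42 and 3.04 FPKM. The reads of the globins are uncertain where copies of a gene are near-identical. How much blood each pool held was not measured, and its part was not tested.

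The lists of the myocyte and its mitochondria depended on which lowland library was used. The median of 67 nuclear genes of oxidative phosphorylation was 0.18, made up of -0.33 against YL1 and 0.61 against YL2, and 57 of the 67 were lower than in YL1. The 13 ventricular markers had a median of 0.39, made up of -0.31 and 0.95. None was higher without overlap and 1 was lower, beside 21.9% and 14.4% of all genes tested. TNNI3, the cardiac troponin I, was at 8937 and 8855 FPKM in YH1 and YH2, 11765 FPKM in YL1 and 4597 FPKM in YL2, and MYL3, a ventricular myosin light chain, at 6557, 7282, 7963 and 3282 FPKM. The highland libraries thus lay between the lowland ones. ACTC1, the cardiac actin, was lower in the highland libraries against both, at 838 and 1276 FPKM against 1367 and 1457 FPKM. The summed kidney markers were 11376 FPKM in YL2 and 7.66 FPKM in YL1, and the part of that in the values against YL2 was not tested.

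Calcium cycling and channel genes had a median of 0.56, made up of -0.03 against YL1 and 1.03 against YL2, and the 23 genes of the TCA cycle and pyruvate entry one of 0.27, made up of -0.02 and 0.54. The 22 natriuretic and stress genes had one of 0.73, made up of 0.03 and 1.55, and of 0.37 without YH2. The natriuretic peptides themselves did not separate the groups. NPPA, the atrial peptide, was at 23.1 and 93.1 FPKM in YH1 and YH2 and at 23.3 and 46.3 FPKM in YL1 and YL2, and NPPB, the B-type peptide, at 16.1 and 180 FPKM against 278 and 64.3 FPKM. YH2 was far above YH1 in both, and the sign of the difference in both genes changed when a library was left out. FLNC, the filamin of striated muscle, was higher without overlap at 248 and 702 FPKM against 208 and 70.6 FPKM, with YH2 far above YH1. ITGA5, the fibronectin receptor chain, was at 79.5 and 2151 FPKM against 78.4 and 27.1 FPKM, so that its difference of 3.14 ± 1.36 (SE) came from YH2. CCL2, the chemokine for monocytes, was at 12.1 and 52.5 FPKM against 8.63 and 8.02 FPKM. These last 3 are among the genes that the study itself named for Yorkshire pigs, chosen on these samples, and their direction here is not independent evidence.

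**Figure D5:**
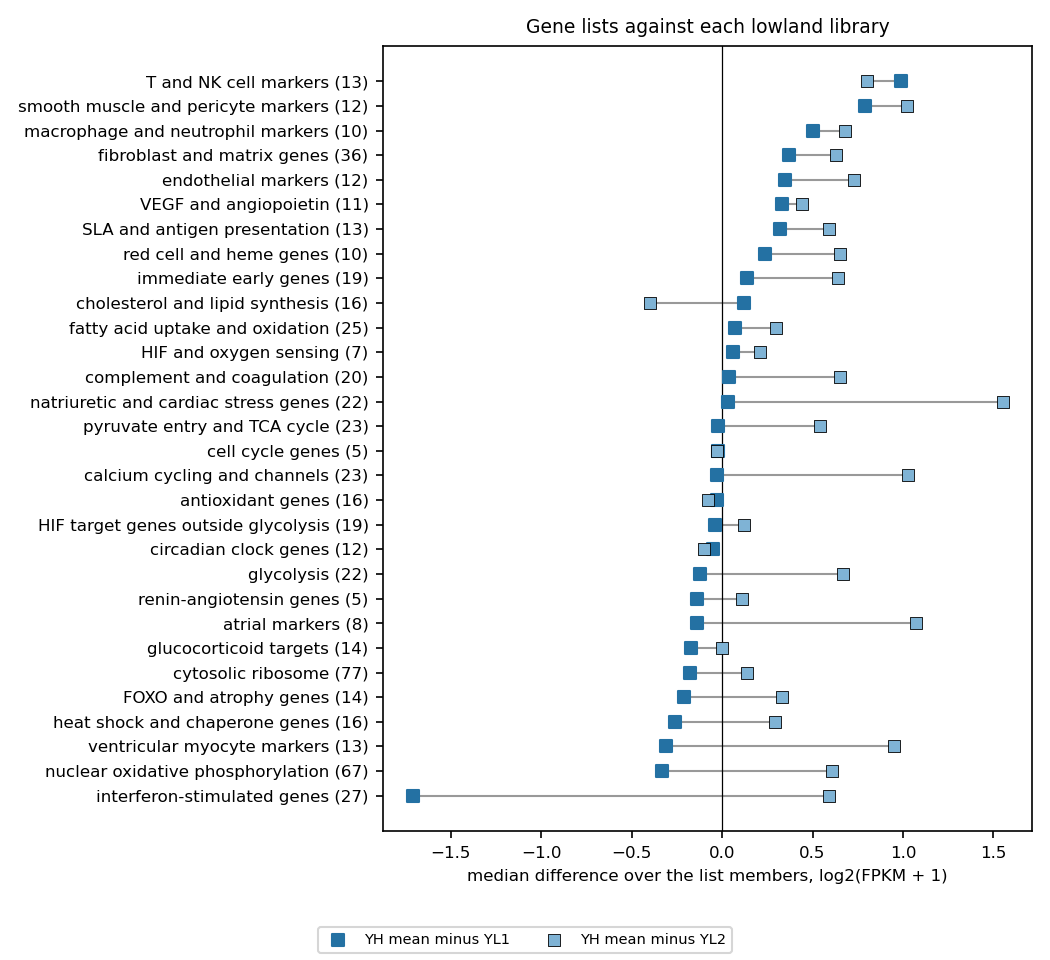
Median difference over the genes of each list, highland mean minus YL1 (dark squares) and highland mean minus YL2 (light squares), on the log2(FPKM + 1) scale, for lists with 5 or more genes kept (number in brackets). The smooth muscle, endothelial and matrix lists have both squares right of 0, whereas oxidative phosphorylation (-0.33 and 0.61) and the interferon-stimulated genes (-1.71 and 0.59) have squares on both sides, and the T and NK list is not read against YL1, since the choice of genes fixed the side of 8 of its 13.

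Fuel handling showed a few separate genes rather than a shared direction. Of 25 fatty acid genes kept 17 were higher, with a median of 0.19, of 0.07 against YL1 and of 0.30 against YL2, and the median over all 29 in the table was 0.03. UCP2, a carrier of the inner mitochondrial membrane, was at 13.3 and 16.8 FPKM in YH1 and YH2 and at 7.37 and 5.51 FPKM in YL1 and YL2, a difference of 1.11 ± 0.23 (SE). UCP3, its neighbour on chromosome 9 and the form of muscle, was at 3.08 and 2.63 FPKM against 1.09 and 0.682 FPKM, a difference of 1.04 ± 0.22 (SE). Both were also higher against YL1 alone, by 0.93 and 0.88. CD36, the fatty acid translocase, was at 486 and 311 FPKM against 328 and 109 FPKM, and overlapped. PLIN2, the lipid droplet protein at chromosome 1 (ENSSSCG00000005171), which was named after its values were seen, was at 24.6 and 23.9 FPKM against 5.95 and 21.2 FPKM, so that YL1 alone was low. PLIN4, of the same family, was at 9.24 and 9.02 FPKM against 5.27 and 5.78 FPKM.

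The remaining lists are given by their median, with those against YL1 and YL2 in brackets, beside quartiles of -0.15 and 0.31 over the 10353 genes. In 5 lists the sign turned with the lowland library: the median was -0.04 in 77 cytosolic ribosomal protein genes (-0.18 and 0.14), 0.39 in 8 atrial markers (-0.14 and 1.07), 0.14 in 3 skeletal muscle markers (-0.44 and 0.85), 0.12 in FOXO and atrophy genes (-0.21 and 0.33) and 0.03 in chaperones (-0.26 and 0.29). Cholesterol and lipid synthesis turned the other way, at -0.22 (0.12 and -0.40). The median was 0.34 in 4 adipocyte markers (0.13 and 0.40), 0.16 in immediate early genes (0.14 and 0.64) and 0.31 in complement and coagulation (0.04 and 0.65), and without YH2 the last 2 stood at -0.07 and 0.00. It was -0.13 in clock genes (-0.05 and -0.10), 0.01 in glucocorticoid targets (-0.17 and 0.00), -0.08 in antioxidant genes (-0.03 and -0.08) and -0.01 in cell cycle genes (-0.02 and -0.03). The genes left out for low values or for YL2 bear on some of these medians: over all entries in the table the median was 0.03 in 28 complement and coagulation genes (15 higher, 13 lower), -0.27 in 27 antioxidant genes, -0.35 in 18 clock genes, 0.20 in 10 atrial markers and 0.08 in 8 adipocyte markers. KLF9, a target of the glucocorticoid receptor, was at 12.2 and 11.1 FPKM against 16.3 and 20.1 FPKM, lower without overlap. Lists chosen on these samples are not independent evidence: the median was -0.10 over 8 genes taken up for RT-qPCR (-0.14 and -0.09) and 0.45 over 21 genes tabulated for hypoxia (0.19 and 0.64), the latter at -0.03 without YH2.

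Whether the altitude difference was particular to the Yorkshire pigs was tested by the interaction of altitude and breed in the same limma fit. None of the 10353 genes passed the threshold of an adjusted p under 0.01 and a difference over 1 (0.0336% of all genes tested did), and the tests stand for pools of pigs here too. At an unadjusted p under 0.05, 819 genes (7.91%) had a more positive difference in Yorkshire pigs and 377 (3.64%) a more negative one, against 7.16% and 3.78% of all genes tested. There were 0 interaction calls with edgeR and 51 among the genes kept with DESeq2, of 75 among all genes tested.

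Across the 10353 genes the differences of the 2 breeds were not alike, with a Pearson's r of -0.15 and a Spearman's rho of -0.21. These breeds share no library, but genes are not independent points, and no p is given.

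AGT and NT5C1A were among the genes that ran in opposite directions. AGT was at 53.1 and 41.7 FPKM in TH1 and TH2 and at 70.4 and 94.3 FPKM in TL1 and TL2, and its interaction was 2.17 ± 0.34 (SE). NT5C1A was at 1.37 and 3.96 FPKM in the highland Tibetan libraries and at 19.7 and 17.9 FPKM in the lowland ones, with an interaction of 4.27 ± 0.52 (SE). In both genes the lowland Yorkshire and highland Tibetan libraries were the lower ones. CORIN followed the same order, at 3.84 and 4.32 FPKM against 11.2 and 9.83 FPKM in Tibetan pigs, with an interaction of 2.81 ± 0.44 (SE). PDLIM3 was the opposite case, at 236 and 351 FPKM against 38.7 and 97.1 FPKM in Tibetan pigs, with an interaction of 0.04, so that it was higher at altitude in both breeds.

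Of the 5 T and NK cell genes above 1 FPKM in YH1, YH2 and YL1, CD3E, CD2, NKG7 and CCL5 had a positive interaction at an unadjusted limma p under 0.05, beside 7.16% of all genes tested, and IL2RB had not. CD3E was at 1.69 and 0.858 FPKM in TH1 and TH2 and at 2.11 and 1.83 FPKM in TL1 and TL2, while NKG7 and CCL5 overlapped there. CD2 was at 0.491 and 0.276 FPKM against 1.42 and 2.19 FPKM in Tibetan pigs, and its interaction was 1.94 ± 0.32 (SE). SLA-DQA1 was at 45.3 and 53.2 FPKM against 97.8 and 108 FPKM there, with an interaction of 2.14 ± 0.33 (SE). The smooth muscle, endothelial and matrix lists had 3 of 12, 2 of 12 and 3 of 36 positive interactions at that p, beside 7.16%. Negative ones were 0, 0 and 1, beside 3.78% of all genes tested. In Tibetan pigs 3 of the 12 smooth muscle genes were higher without overlap in the highland libraries and 3 lower, 2 and 2 of the endothelial genes, and 6 and 4 of the matrix genes, beside 24% and 24.5% of all genes tested, so no direction is read for these lists there. NPPA and NPPB, level or mixed in Yorkshire pigs, differed by 4.84 and 7.55 in Tibetan pigs. The median of the ribosomal protein genes was 0.73 there. Their summed level was 93225 FPKM in TH1 and 56124 FPKM in TH2, against 44338 and 44398 FPKM in TL1 and TL2. The median level of the 36 matrix entries in log2(FPKM + 1) was 3.83 in TH1 and 5.72 in TH2. The highland Tibetan libraries thus differed from each other in these lists, and the part of that in the Tibetan and interaction values was not tested.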

How the data were processed

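RNA-seq of 8 heart libraries, each a pool of 4 pigs, was analysed. Per the study's methods the authors filtered 100-bp paired reads in CLC Genomics Workbench and aligned them with TopHat 2.0.9 to Sscrofa10.2, and they made the deposited FPKM values with Cufflinks. The deposited signal columns, headed as counts, are not whole: their values step as fragments of a gene scaled by the authors with 1 factor per library, and the tool for this scaling is not given in the sources used here. From the steps, 99.8% of low values came out as whole reads within 0.02, while 0 to 5 values per library lay below 0.5 of a step, none of them in YH2. A stricter check of whole steps was passed by the YH2 column alone, so that read-based results rest on this recovery. The recovered reads gave the depth per library (18612000 to 21456000 on genes in the Yorkshire libraries), which with 2 pools a group limits the precision. The 8 columns of the authors' means and ratios were not used.

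The main test was limma 3.58.1 (R 4.3.3) with a trend on log2(FPKM + 1), fitted to 11913 genes in 8 libraries with a mean per group. P-values were adjusted by Benjamini and Hochberg over all of them, and a call needed an adjusted p under 0.01 and a difference over 1. Alternatives were edgeR 4.0.16 and DESeq2 1.42.0 on the recovered reads, median-ratio scaling, equal FPKM sums, a pseudocount of 0.1, other filters, the Yorkshire libraries alone, a replicate block and each library left out. The fits were tested on simulated data. Named genes were up to 15 a side with the widest gap, the 5 most abundant and 3 with the widest gap of each of 38 lists, and the genes of the study's own lists; others are said to be named after their values were seen. The genes and lists were chosen with earlier results of these data known. Of the genes kept, 1273 have no symbol. Same-numbered libraries of highland and lowland Yorkshire pigs did not deviate together (correlation 0.05), so they were not taken as pairs.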

Additional observations from a re-analysis of the deposited data

Results flagged for a closer look

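The summed level of the 24 kidney markers was 11376 FPKM in YL2, against 3.74 to 20.8 FPKM in the other 7 libraries, a signal of another organ in a library labelled as heart. None of these genes is among the genes kept, though some are among all genes tested. Its part in the values of the genes kept was not tested, and results are given against YL1 alone beside it.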

How the results depend on the processing

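The 114 genes followed gave 1659 values under the alternatives, of which 1609 kept their direction and their side of the threshold, 21 passed it only there, and 29 changed sign. The cause was not tested. With DESeq2 there were 16 calls among the genes kept and 36 among all genes, 274 genes lower at an unadjusted p under 0.05, and 51 and 75 interaction calls. With equal FPKM sums there were 11 and 69 calls, 80 higher and 17 lower genes, and 13 and 40 interaction calls. With edgeR there were 229 lower genes and 0 interaction calls, and with edgeR without YL2 there were 1 and 1 calls, 249 higher and 231 lower genes, and 1 and 1 interaction calls. A mean of at least 10 FPKM left 165 higher and 40 lower genes, the Yorkshire libraries alone 75 lower genes, and a pseudocount of 0.1 gave 1 call among all genes.

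Leaving out each library in turn, calls ran from 0 to 17 among the genes kept and from 0 to 305 among all genes, higher genes from 166 to 1372, lower genes from 60 to 763, and interaction calls from 0 to 17 and from 5 to 152. The highest values were those without YL1 and the lowest counts of higher and lower genes those without YH2; the 1 library left in a group is then assumed to vary like the others.

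SLA-5 changed sign with DESeq2 (0.24) and edgeR (0.26). With edgeR without YL2 the sign changed for EGLN3 (-0.32), EPAS1 (-0.03), MYL3 (-0.24), CD36 (-0.10), TNNI3 (-0.28), C1QC (-0.04), DES (-0.56) and AHSP (0.09). Leaving out each library in turn, the difference ran from -0.48 to 0.11 for AGTR1, from -0.51 to 0.23 for AHSP, from -0.01 to 0.55 for C1QA, from -0.01 to 0.95 for C1QC, from -2.71 to 2.57 for CXCL10, from -0.73 to 1.20 for DES, from -0.23 to 0.95 for EGLN3, from -0.05 to 0.72 for HIF1A, from -1.38 to 0.62 for IFI44L, from -3.29 to 0.06 for ISG15, from -0.20 to 1.07 for MYL3, from -0.50 to 1.47 for NPPA, from -2.98 to 0.42 for NPPB, from -1.81 to 0.94 for OAS2, from -0.12 to 0.63 for SLA-8 and from -0.40 to 0.95 for TNNI3.

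With the replicate number as a block there were 0 calls, 484 higher and 106 lower genes, and the pairing changed no call.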

Other observations

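ASH1L, a histone methyltransferase, was the gene called by edgeR without YL2. It was at 3.44 and 3.47 FPKM in YH1 and YH2, listed at 0 in YL1 and at 3.74 FPKM in YL2.

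There were 88 genes that had at least 1 FPKM in YL1 and YL2 and in neither highland library, and are therefore not among the genes described. HERC5, an interferon-stimulated ubiquitin ligase outside the genes kept, was at 7.71 FPKM in YL1 and at 0.807, 0.57 and 0.957 FPKM in YH1, YH2 and YL2.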
